A study of Mus musculus with 6 samples.

Results

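The cation-chloride cotransporters and the kinases that control them were examined in whole-brain RNA of 7-day-old male mice 4 h after the first of 2 doses of ethanol. The set held 9 genes chosen by name, the cotransporter genes Slc12a2, Slc12a4, Slc12a5 and Slc12a7, the WNK kinase genes Wnk1, Wnk2 and Wnk3, and Stk39 and Oxsr1, which encode the kinases SPAK and OSR1. All 9 were among the 14953 genes tested, of 19938 genes named on the array. Each gene was read from the probeset (the group of array probes summarised as 1 value) with the highest mean over all arrays. All pups were C57BL/6J, an inbred strain. The ethanol group received 2 doses of 2.5 g/kg as a 20% solution in 0.15 M saline under the skin, 2 h apart, and the saline group received the vehicle alone. Each array held equal amounts of RNA from 3 males of different litters, and each ethanol pup had a saline littermate in the study. There were 2 ethanol arrays, numbered 2 and 4 in the labels, and 4 saline arrays, numbered 1, 3, 5 and 6, from 18 mice in all. Pooling averages the pups of an array, so differences between single animals were not measured.

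Cation-chloride cotransporters set the chloride concentration inside cells and so the direction of current through GABA-A and glycine receptors. NKCC1, the product of Slc12a2, brings chloride in with sodium and potassium, and KCC2, the neuronal product of Slc12a5, carries chloride out with potassium. In the rodent brain KCC2 increases during the first postnatal weeks, a period in which the action of GABA shifts from depolarising to inhibitory. WNK kinases respond to chloride and osmotic stress and phosphorylate SPAK and OSR1. These in turn phosphorylate the cotransporters, which activates NKCC1 and restrains the potassium-chloride cotransporters. RNA levels do not measure that phosphorylation.

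The stretches before the transcription starts of Slc12a5 and Slc12a7 are shown because the first gene has 2 separate first exons, for the KCC2a and KCC2b forms, that the array read through a single probeset, and because the second gene was the 1 member whose groups did not overlap. Both sets are RefSeq sequences of build GRCm38.p6, the 250 bases before a start, 5′ to 3′ on the plus strand, with the E-box CACGTG in capitals. USF transcription factors bind such an E-box, and in the rat they act on one in the Slc12a5 promoter.
Slc12a5, first start, chr2:164960596-164960845: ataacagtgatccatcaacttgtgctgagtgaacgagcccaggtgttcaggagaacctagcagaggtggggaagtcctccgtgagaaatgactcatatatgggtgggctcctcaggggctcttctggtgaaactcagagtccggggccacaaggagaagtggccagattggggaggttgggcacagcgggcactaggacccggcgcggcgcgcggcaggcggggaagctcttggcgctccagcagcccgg
Slc12a5, second start, chr2:164967738-164967987: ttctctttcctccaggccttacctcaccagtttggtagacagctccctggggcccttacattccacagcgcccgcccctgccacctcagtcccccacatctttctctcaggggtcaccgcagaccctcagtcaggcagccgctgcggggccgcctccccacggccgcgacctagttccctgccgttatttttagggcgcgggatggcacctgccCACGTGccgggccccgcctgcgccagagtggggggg
Slc12a7, chr13:73763447-73763696: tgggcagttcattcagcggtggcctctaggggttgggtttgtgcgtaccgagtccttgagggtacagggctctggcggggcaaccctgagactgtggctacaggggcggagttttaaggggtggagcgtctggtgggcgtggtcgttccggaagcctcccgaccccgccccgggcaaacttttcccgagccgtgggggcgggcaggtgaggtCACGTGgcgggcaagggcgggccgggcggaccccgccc

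The starts of Slc12a5 lay 7142 bases apart, and the E-box stood before the second start only, beginning at position -36, where -1 is the base before the start. In the window of Slc12a7 the E-box began at position -38. A further listed start of Slc12a7 has a window that overlaps the one shown and ends before the E-box is complete. Windows were found for 8 of the 9 members, 10 windows in all. E-boxes stood in 1 window of each of these 2 genes, where 6.02% of 32851 such windows in the RefSeq table held one. The binding motif of EGR factors, GCGNGGGCG on either strand, was found in none of the 10 windows, and 4.70% of all windows held it. These are matches of letters and not measured binding.

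Values are log2 intensities, on which a difference of 1 is a doubling, and levels are compared between arrays for 1 probeset and never between genes. The level of 6.21, the 95th percentile of 1194 receptor genes of smell and pheromone sensing, served as a mark of background. All 9 members lay above that level on every array. Saline array 3 stood apart from the other arrays, at 13.5 on the first principal component against -7.49 to 2.95 for the others, and its median over tested genes was 8.29, where the others had 8.34 to 8.38. Markers of the labelled tissue were present: 8 of 8 neuronal and 8 of 8 astrocyte markers lay above background on every array. The 8 neuronal markers had a mean level of 11.69 on saline array 3, of 11.74 to 11.81 on the other saline arrays, and of 11.72 and 11.75 on ethanol arrays 2 and 4. Of 5 tested pituitary markers, 1 lay above background on every array, and their mean level was 6.60 and 5.96 on ethanol arrays 2 and 4 against 6.79 to 6.95 on the saline arrays. All 5 had lower means with ethanol. Gh had 7.70 to 8.52 on saline arrays and 7.65 and 5.72 on ethanol arrays 2 and 4. Cga had 7.66 to 7.93 on saline arrays and 7.19 and 6.06 on ethanol arrays 2 and 4. The Gh difference, -1.52 (limma adjusted p = 0.162), was the largest in size of all tested genes. In whole-tissue RNA, fewer cells of a type and less RNA per cell cannot be told apart.

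The comparison of ethanol with saline asked whether these transcripts differ at an age when neuronal chloride handling is still maturing. None of the 4 cotransporter genes passed the test. The means of Slc12a2 and Slc12a5 were slightly higher with ethanol and those of Slc12a4 and Slc12a7 slightly lower, and each 95% interval included 0. Slc12a7 was the 1 gene of the 9 with both ethanol arrays on one side of all saline arrays, where 22.6% of all tested genes had them so.

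Slc12a2, the chloride importer, is expressed in immature neurons, in glial precursors and in choroid plexus. Its level was 9.92, 9.80, 9.88 and 9.90 on saline arrays 1, 3, 5 and 6, and 9.86 and 9.98 on ethanol arrays 2 and 4. The ethanol arrays stood on both sides of saline array 1, and the groups overlapped. The difference, ethanol minus saline, was 0.04 ± 0.06 on the log2 scale (SE, the standard error in limma, 2 and 4 arrays), with a 95% interval of -0.10 to 0.18 (limma adjusted p = 0.836). It was 0.10 without ethanol array 2 and -0.016 without ethanol array 4. The 8 tested choroid plexus markers, whose 1 remaining listed gene was not analysed here, had a mean level of 7.96 to 8.07 on saline arrays, and the ethanol arrays, the lower of them at 7.95, did not exceed that range. The 6 oligodendrocyte precursor markers had 9.41 to 9.49 on saline arrays and 9.37 and 9.39 on ethanol arrays. These markers were mixed, with 3 higher with ethanol, 3 lower and a median difference of -0.015. In limma 2 of them had an unadjusted p under 0.05, both lower with ethanol, as were 8.44% of all tested genes. They were Olig2, at -0.32 (limma adjusted p = 0.0827), and Olig1, at -0.16 (adjusted p = 0.392). The part of these cell types in the Slc12a2 values was not tested.

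Slc12a5, the neuronal chloride exporter, had levels of 10.60, 10.26, 10.52 and 10.55 on saline arrays 1, 3, 5 and 6, and of 10.60 and 10.54 on ethanol arrays 2 and 4. Saline array 3 was low and the other 5 arrays lay within 0.08 of each other, with the ethanol arrays inside the range of the saline arrays. The difference was 0.09 ± 0.09 (SE, limma, adjusted p = 0.731), with a 95% interval of -0.10 to 0.27. This corresponds to a mean 6.16% higher, with an interval of -6.83% to 21.0%. Without saline array 3 the difference was 0.01 (limma adjusted p = 0.941), and with arrays weighted by their quality it was 0.04, so most of the higher mean rested on that array.

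Slc12a7, which encodes KCC4, had levels of 6.47, 6.39, 6.52 and 6.41 on saline arrays 1, 3, 5 and 6, and of 6.34 and 6.37 on ethanol arrays 2 and 4. Both ethanol arrays lay below all 4 saline arrays, by 0.02 at the closest, and all 6 values were near background. The difference was -0.09 ± 0.06 (SE, limma, adjusted p = 0.576), with a 95% interval of -0.23 to 0.04. It was -0.05 after quantile normalization. Among all tested genes, 14.9% had both ethanol arrays below all saline arrays and 22.6% had them beyond the saline arrays in either direction. The 1 member of 9 is to be read against those shares.

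Slc12a4, which encodes KCC1, a cotransporter of cell volume control, had levels of 6.86, 6.92, 6.93 and 6.98 on saline arrays 1, 3, 5 and 6, and of 6.88 and 6.81 on ethanol arrays 2 and 4. Ethanol array 2 lay above saline array 1, so the groups overlapped. The difference was -0.08 ± 0.06 (SE, limma, adjusted p = 0.643), with a 95% interval of -0.21 to 0.06. Without ethanol array 4 it was -0.045.

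**Figure D1:**
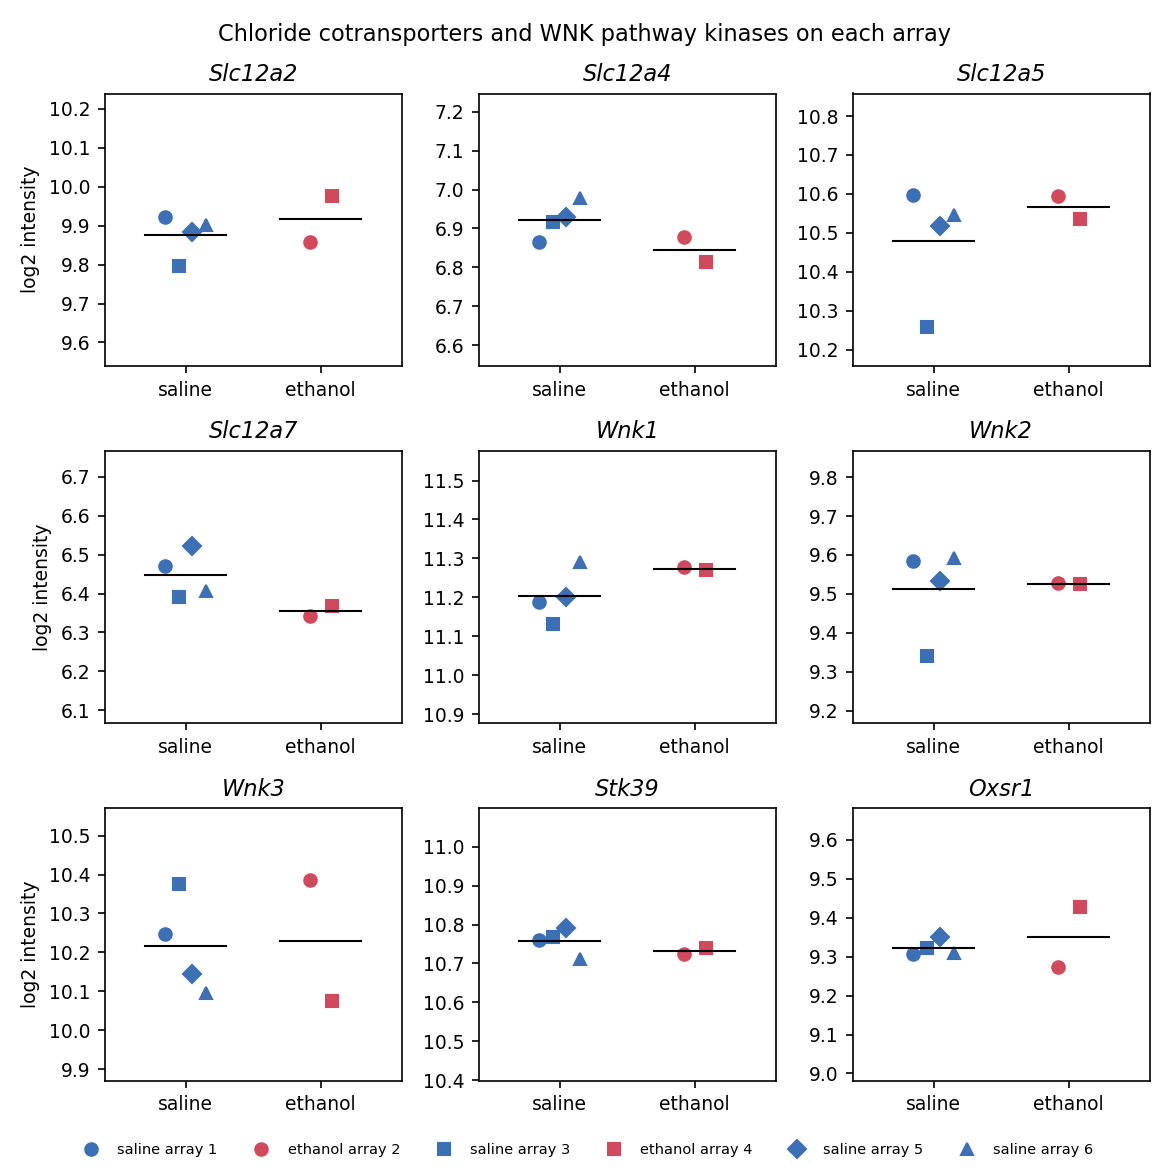
Log2 intensity (y axis) of the 9 genes on each array, with a panel per gene and all panels spanning the same log2 width. Points are arrays, with shapes for array numbers, and lines are group means. Saline array 3 is the lowest point for Slc12a2, Slc12a5, Wnk1 and Wnk2, and only Slc12a7 has both ethanol points on one side of all saline points.

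No kinase gene of the pathway passed the test either. Group means of the 5 kinase genes differed by 0.03 or less for Wnk2, Wnk3, Stk39 and Oxsr1 and by 0.07 for Wnk1. Their unadjusted p-values in limma ran from 0.280 for Wnk1 to 0.882 for Wnk3.

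Wnk1 encodes a widely expressed WNK kinase, of which nervous tissue also makes a longer form. Its level was 11.19, 11.13, 11.20 and 11.29 on saline arrays 1, 3, 5 and 6, and 11.28 and 11.27 on ethanol arrays 2 and 4. The ethanol arrays lay close together, above 3 of the saline arrays and below saline array 6. The difference was 0.07 ± 0.06 (SE, limma, adjusted p = 0.688), with a 95% interval of -0.07 to 0.21, and without saline array 3 it was 0.047. A second, dimmer Wnk1 probeset, which the platform annotation pairs with fewer Wnk1 transcripts, had 9.92, 9.87, 10.08 and 9.96 on the saline arrays and 10.05 and 10.13 on ethanol arrays 2 and 4. Saline array 5 lay between the ethanol arrays there, and the difference was 0.13 ± 0.07 (SE, adjusted p = 0.488 in limma over every probeset that was not dim). Its interval of -0.02 to 0.28 overlapped that of the brighter probeset, and the difference between the probesets was not tested. The unadjusted p of the dimmer probeset in limma was 0.0805. It was 0.0438 after median centring, 0.0466 after quantile normalization and 0.0291 without saline array 5, but 0.131 with no variance prior. The smallest adjusted p of this probeset over the alternatives in limma was 0.383.

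Wnk2, a kinase gene of the brain, had levels of 9.59, 9.34, 9.53 and 9.59 on saline arrays 1, 3, 5 and 6, and of 9.53 on both ethanol arrays. Saline array 3 was again low, and both ethanol arrays lay above it and below the other 3 saline arrays. The difference was 0.01 ± 0.08 (SE, limma, adjusted p = 0.964), with a 95% interval of -0.15 to 0.18. Without saline array 3 it was -0.04 (limma adjusted p = 0.735).

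Wnk3, an X-linked kinase gene expressed in neurons, varied most within groups. Its level was 10.25, 10.38, 10.14 and 10.10 on saline arrays 1, 3, 5 and 6, and 10.39 and 10.07 on ethanol arrays 2 and 4. The ethanol arrays were the highest and the lowest of the 6, and the groups overlapped fully. The difference was 0.01 ± 0.09 (SE, limma, adjusted p = 0.969), with the widest interval of the 9 genes, -0.19 to 0.22. It was -0.14 without ethanol array 2 and 0.17 without ethanol array 4.

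Stk39, whose product SPAK phosphorylates the cotransporters directly, varied least within groups. Its level was 10.76, 10.77, 10.79 and 10.71 on saline arrays 1, 3, 5 and 6, and 10.73 and 10.74 on ethanol arrays 2 and 4. All 6 arrays lay within 0.08 of each other, and both ethanol arrays lay inside the saline range. The difference was -0.03 ± 0.06 (SE, limma, adjusted p = 0.901), with a 95% interval of -0.15 to 0.10, or -9.96% to 7.19%. It ranged from -0.041 to -0.015 with an array left out.

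Oxsr1, whose product OSR1 is the closest relative of SPAK, had levels of 9.31, 9.32, 9.35 and 9.31 on saline arrays 1, 3, 5 and 6, and of 9.27 and 9.43 on ethanol arrays 2 and 4. The saline arrays were tightly grouped, with ethanol array 2 below and ethanol array 4 above all of them. The difference was 0.03 ± 0.06 (SE, limma, adjusted p = 0.8996), with a 95% interval of -0.11 to 0.16. It was 0.10 without ethanol array 2 and -0.049 without ethanol array 4.

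Across the 9 genes, 0 passed the limma test at an adjusted p of 0.05, where 12 of all tested genes, or 0.0803%, did. None of the 9 had an unadjusted p under 0.05 in limma, where 12.3% of all tested genes had one. With 9 genes these shares do not set the members apart from other genes. The median difference of the members was 0.01, with 6 above 0 and 3 below. That of all tested genes was -0.02, with 58.6% of them below 0. The largest difference in size among the members was that of Slc12a7. Taken over the 9 genes, the 95% intervals of the measured intensity reached from -14.6% for Slc12a7 to 21.0% for Slc12a5. Intensities near background, as those of Slc12a7, understate a change in RNA.

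**Figure D2:**
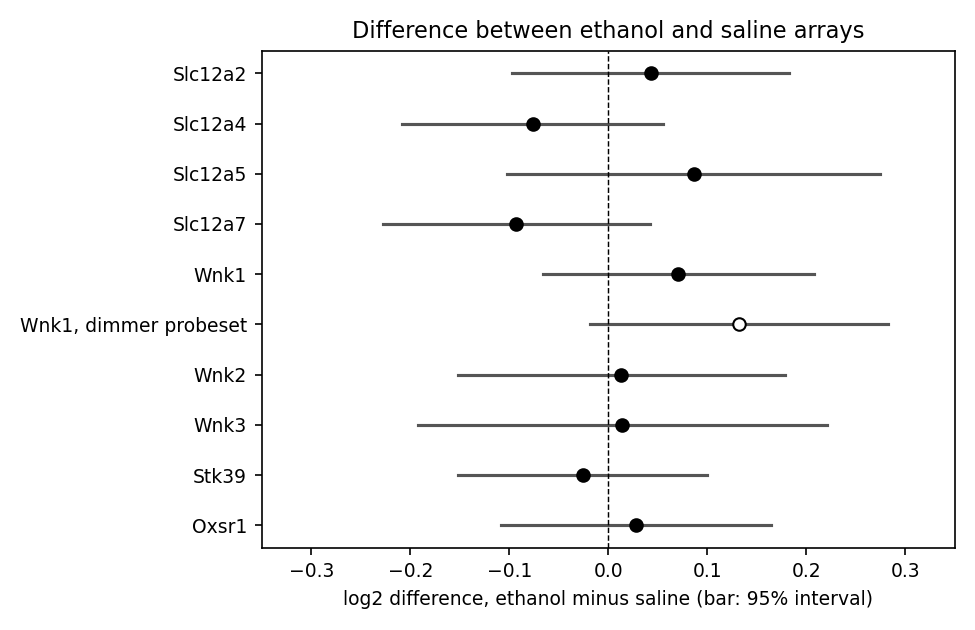
Log2 difference, ethanol minus saline (x axis), of each member, with bars for the 95% interval of the limma fit over 2 ethanol and 4 saline arrays. The open point is the dimmer Wnk1 probeset, from the fit over every probeset that was not dim. Every interval includes 0, and the interval of Wnk3 is the widest.

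The RNA levels of the importer and exporter genes were set against each other as the log2 level of Slc12a2 minus that of Slc12a5 on each array. Chloride transport was not measured, and the part of the mix of cell types in this ratio was not tested. The absolute size of the ratio has no meaning between probesets, so it was set relative to its saline mean. The ratio stood at -0.07, 0.14, -0.03 and -0.04 on saline arrays 1, 3, 5 and 6, and at -0.13 and 0.05 on ethanol arrays 2 and 4. Saline array 3 was highest and ethanol array 2 lowest, and the groups overlapped. The spread within each group exceeded the difference between them, with an SD of 0.10 over 4 saline arrays and of 0.13 over 2 ethanol arrays. The ethanol mean was lower by a log2 difference of -0.04 ± 0.09 (SE from the pooled spread), or a ratio 0.970 of the saline one, with a 95% interval of 0.816 to 1.15. A two-sided exact permutation test over the 15 ways to choose 2 of 6 arrays gave p = 0.667, where the smallest possible p is 0.0667, so the test could not have passed 0.05. Without saline array 3 the difference was 0.0036, and without ethanol array 2 it was 0.05. The direction of the ratio was thus not settled by these arrays.

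**Figure D3:**
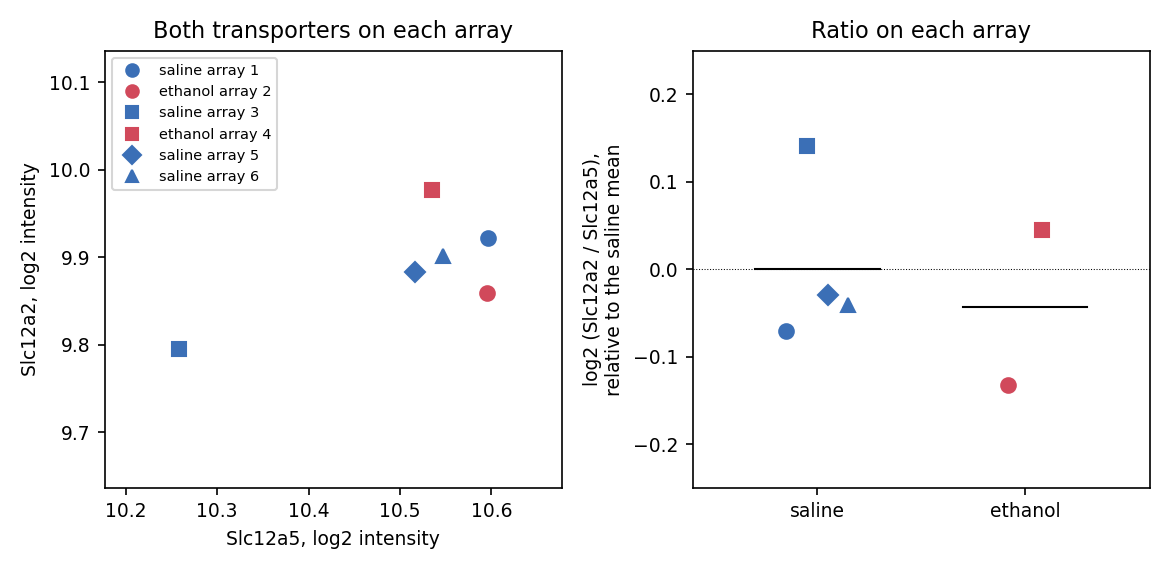
Left, log2 intensity of Slc12a2 (y axis) against that of Slc12a5 (x axis) on each array. Right, the log2 ratio of Slc12a2 to Slc12a5 relative to the saline mean (y axis) by group, with lines for group means. The 2 ethanol points lie at -0.13 and 0.05, on both sides of 3 saline points.

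The members differed in how much they varied among arrays of the same group. The residual SD of Stk39 was 0.03, at percentile 3.85 of tested genes, and that of Slc12a4 was 0.05, at percentile 15.9. At the other end, Wnk3 had 0.15, at percentile 95.2, Slc12a5 0.13, at percentile 90.3, and Wnk2 0.10, at percentile 75.6. The ethanol arrays of Wnk3 were 0.31 apart and those of Wnk2 0.0013 apart. Saline array 3 was the lowest array for 4 of the 9 members, Slc12a2, Slc12a5, Wnk1 and Wnk2, and the highest for none. Slc12a5 and Wnk2 followed each other most closely, with a Pearson r of 0.94 over the 6 arrays that became 0.25 without saline array 3. Wnk1 and Stk39 had the lowest r of all member pairs, -0.80 over all 6 arrays and -0.89 without saline array 3. As the highest and the lowest of all pairs of members, these values follow from the choice. The dimmer Wnk1 probeset was not used for them, and the levels of Stk39 spanned only 0.08. These correlations are between genes read from the same 6 RNA pools, 1 per array, and under the same scaling.

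Other genes of chloride handling were taken from 5 lists, and no tested member of these passed in limma. Their counts above and below 0 are to be read against the 58.6% of all tested genes that lay below 0. The other SLC12 genes, of which 2 of 5 were tested, had differences of -0.04 ± 0.06 (SE, limma) for Slc12a9 and -0.02 ± 0.06 for Slc12a8. On every array Slc12a8 lay below the background mark. The direction of Slc12a8 turned under quantile normalization, to 0.02. Slc12a1 and Slc12a3, the sodium-coupled chloride cotransporters of the kidney, were among the dimmest 25% of genes and were not tested, and 1 gene was not analysed here.

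Among 18 tested partners and regulators of WNK, SPAK and OSR1, 11 lay above 0 and 7 below, with a median difference of 0.0044. Klhl3, an adaptor that directs WNK kinases to degradation, had 8.77, 8.40, 8.61 and 8.67 on saline arrays 1, 3, 5 and 6, and 8.79 and 8.84 on ethanol arrays 2 and 4. Both ethanol arrays lay above all saline arrays, by 0.02 at the closest, and saline array 3 was lowest. The difference of Klhl3 was 0.20 ± 0.09 (SE, limma, adjusted p = 0.376). It was 0.13 without saline array 3 and 0.15 with array weights, at unadjusted p-values of 0.0599 and 0.0547 in limma. In the limma fit with no variance prior its unadjusted p was 0.160. Klhl3 was the 1 member of this list with an unadjusted p under 0.05 in limma, where 3.85% of all tested genes had one and were higher with ethanol. Both ethanol arrays lay above all saline arrays for 3 of the 18 and for 7.68% of all tested genes. The kinase gene Sgk1 had a difference of 0.08 ± 0.06 (SE, limma, adjusted p = 0.644) with both ethanol arrays above all saline arrays, and Ppp1r1a, an inhibitor of protein phosphatase 1, -0.09 ± 0.08 (adjusted p = 0.670). With an array left out, Sgk1 ranged from 0.050 to 0.10 and Ppp1r1a from -0.15 without ethanol array 2 to -0.037 without ethanol array 4. Wnk4 was dim and was not tested.

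Genes that regulate or bind Slc12a5 or its product numbered 25 tested of 30, with 13 above 0, 12 below and a median of 0.0013. In limma 3 had an unadjusted p under 0.05, all of them lower with ethanol, as were 8.44% of all tested genes. Both ethanol arrays lay below all saline arrays for 3 of the 25 and above them for 0, against 14.9% and 7.68% of all tested genes. Bdnf, a neurotrophin that regulates KCC2 in rodents, lay below the background mark of 6.21 on every array. It had 5.75, 6.02, 5.85 and 5.79 on saline arrays 1, 3, 5 and 6, and 5.61 and 5.67 on ethanol arrays 2 and 4. Both ethanol arrays lay below all saline arrays, at a difference of -0.21 ± 0.08 (SE, limma, adjusted p = 0.293). Rest, a repressor of neuronal genes, had 6.78, 7.03, 7.01 and 6.88 on the saline arrays and 6.76 and 6.74 on ethanol arrays 2 and 4, again without overlap, at -0.18 ± 0.08 (SE, limma, adjusted p = 0.366). The activity-induced factor gene Egr1 had 8.37, 8.71, 8.52 and 8.47 on the saline arrays and 8.16 and 8.39 on ethanol arrays 2 and 4. Its groups overlapped at saline array 1, and its difference was -0.24 ± 0.09 (SE, limma, adjusted p = 0.312), or -0.13 without ethanol array 2 and -0.35 without ethanol array 4. After median centring the unadjusted p in limma was 0.0526 for Bdnf, 0.0591 for Egr1 and 0.0787 for Rest, and after quantile normalization it was 0.0565 for Rest. In the limma fit with no variance prior it was 0.0812 for Bdnf, 0.127 for Egr1 and 0.115 for Rest. Saline array 3 was the highest array for all 3 of these genes and the lowest for Slc12a5. The USF factor genes were named for the E-box after their values were seen. Their differences were 0.04 ± 0.08 (SE, limma) for Usf2 and -0.0032 ± 0.09 for Usf1, which lay below the background mark on every array. Egr4 was dim and not tested.

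The other chloride and bicarbonate transporters, 15 of 18 tested, had a median of -0.06, with 6 above 0 and 9 below. The median was -0.016 with the dimmest 50% of genes left out or with probesets averaged, and -0.022 after quantile normalization. Both ethanol arrays lay above all saline arrays for 1 of the 15 and below them for 2, against 7.68% and 14.9% of all tested genes. Slc4a8, a sodium-driven chloride and bicarbonate exchanger of neurons, had 8.91, 8.62, 8.83 and 8.89 on saline arrays 1, 3, 5 and 6, and 8.95 and 9.08 on ethanol arrays 2 and 4. The ethanol arrays lay above all saline arrays, and the difference was 0.20 ± 0.08 (SE, limma, adjusted p = 0.344), or 0.14 without saline array 3. In the limma fit with no variance prior the unadjusted p of Slc4a8 was 0.124. Car14, a membrane carbonic anhydrase, had -0.14 ± 0.06 (SE, limma, adjusted p = 0.394), with both ethanol arrays below all saline arrays. It was -0.076 without ethanol array 4, and after quantile normalization its unadjusted p in limma was 0.0690. Without saline array 6 the unadjusted p of Car14 in limma was 0.106. Slc4a1, the anion exchanger of red blood cells, had -0.18 ± 0.10 (SE, limma, adjusted p = 0.510), with overlap, and ranged from -0.30 without ethanol array 2 to -0.060 without ethanol array 4. The mean of the 2 tested blood markers, Slc4a1 itself and Alas2, was 7.54 to 8.10 on saline arrays and 7.84 and 7.42 on ethanol arrays 2 and 4, and its part in the Slc4a1 values was not tested.

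Chloride channels other than GABA-A and glycine receptors, 27 of 32 tested, had a median of 0.03, with 16 above 0 and 11 below. Both ethanol arrays lay above all saline arrays for 4 of the 27 and below them for 2, against 7.68% and 14.9% of all tested genes. Ano6, a calcium-activated lipid scramblase and ion channel, had 9.56, 9.34, 9.36 and 9.43 on saline arrays 1, 3, 5 and 6, and 9.65 and 9.78 on ethanol arrays 2 and 4. Both ethanol arrays lay above all saline arrays, at a difference of 0.29 ± 0.08 (SE, limma, adjusted p = 0.164), and adjusted p ran from 0.102 to 0.608 over the alternatives in limma. Clcn2, an inwardly rectifying chloride channel of neurons and glia, had 8.65, 8.63, 8.69 and 8.73 on the saline arrays and 8.54 and 8.53 on ethanol arrays 2 and 4. It also showed no overlap, at -0.14 ± 0.06 (SE, limma, adjusted p = 0.371). The unadjusted p of Clcn2 in limma was 0.0384, and it was 0.104 without saline array 6 and 0.0747 without saline array 5. The calcium-activated chloride channel gene Ano1, below the background mark on every array, had -0.20 ± 0.06 (SE, limma, adjusted p = 0.245). It was -0.12 without ethanol array 4, and after quantile normalization its unadjusted p in limma was 0.0525. Clcn5, an endosomal chloride and proton exchanger gene named after its value was seen, had 0.17 ± 0.08 (SE, limma, adjusted p = 0.390) and was the remaining channel of 4 with an unadjusted p under 0.05. Against the 12.3% of all tested genes, such members numbered 0 of 2, 1 of 18, 3 of 25, 2 of 15 and 4 of 27 in the 5 lists in the order given here.

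**Figure D4:**
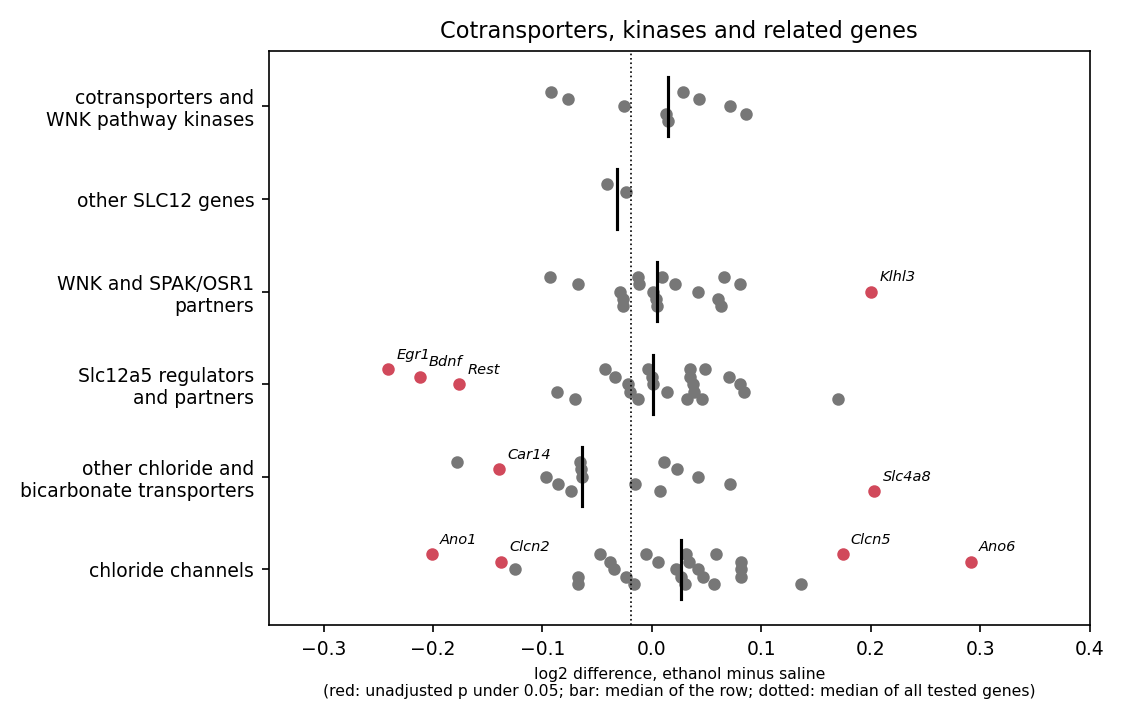
Log2 difference, ethanol minus saline (x axis), of every tested gene of the 9 members and of the 5 lists of related genes. Red points have an unadjusted p under 0.05 in limma and are named, bars are medians of each row, and the dotted line is the median of all tested genes at -0.02. No point passed the adjusted threshold, and the members lie between -0.09 and 0.09.

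The genes whose levels followed Slc12a5 most closely over the 6 arrays were Sdhb, Ppil1 and Amot, with Pearson r of 0.997, 0.996 and 0.996 and Spearman rho of 1, 0.943 and 0.886. Without saline arrays 3 and 1, the arrays farthest from the median of Slc12a5, r was 0.954, 0.970 and 0.977. For Slc12a2 the closest were Ccdc124, Ahcyl1 and Mrpl48, with r of 0.991, 0.989 and 0.988 and rho of 0.943, 0.943 and 1. Without saline array 3 and ethanol array 4, r was 0.931, 0.931 and 0.999. As the highest of all tested genes these values follow from the choice. In all, 924 genes had r over 0.9 with Slc12a5 and 296 with Slc12a2.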

How the data were processed

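The authors deposited 1 log2 value per probeset and array, from a whole-transcript Affymetrix array labelled from 200 ng of pooled RNA, per the labels' protocols. The log2 scale was taken from the range of the values, 4.10 to 14.9. The submitters' processing notes name Partek 6.6. How background was corrected and arrays were normalized is not given in the sources used here. The deposited values were analysed without further scaling, and a change common to the whole array cannot be told from scaling.

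Of 35556 probesets, 21789 had 1 gene symbol, 1621 several and 12146 were unnamed here; symbols were updated through 21698 current records. The dimmest 25% of genes by their mean were left out. Each gene was fitted with limma 3.58.1 in R 4.3.3 (lmFit and eBayes), with treatment as the only term, two-sided, and Benjamini-Hochberg adjustment over all 14953 genes. The p-values and intervals measure the spread between pools, and the number of arrays limits their precision. In eBayes each gene's variance is drawn toward a value estimated from all tested genes, with 8.10 prior against 4 residual degrees of freedom. The limma SEs and intervals are thus not the spread of that gene alone. The members, lists and rules were chosen with earlier results of these data known. Named genes were all 9 members, the 3 genes of smallest unadjusted p in each list, and the 3 genes of highest r with Slc12a2 and with Slc12a5. Usf1, Usf2, Egr4, Clcn5 and the dim genes named as not tested fall outside this rule. Alternatives were the filter on dim genes, the choice of probeset, the scaling, the variance model, array weights and leaving out each array. Promoter sequences are those of RefSeq, build GRCm38.p6, which was not matched to the build behind the array.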

Additional observations from a re-analysis of the deposited data

How the results depend on the processing

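None of the 9 members passed under any of 15 alternatives, where the smallest limma adjusted p was 0.405 (Slc12a7, without saline array 3). Of 133 member values, 126 kept their direction. The rest, with the range over arrays left out in turn, were Slc12a2 (-0.016 to 0.10), Wnk2 (-0.045 to 0.040, and -0.028 with array weights), Wnk3 (-0.14 to 0.17) and Oxsr1 (-0.049 to 0.10), and the ratio of Slc12a2 to Slc12a5 ranged from -0.13 to 0.046. Slc12a9 ranged from -0.086 to 0.0034 and Slc12a8 from -0.050 to 0.0028, with 0.024 for the latter after quantile normalization. Over all genes, 12 passed in limma, against 52 with the dimmest 50% left out, 23 after quantile normalization, 43 with an intensity trend, 56 with array weights, 4 to 16 with an array left out, and 0 with no variance prior (1535 at an unadjusted p under 0.05). The cause was not tested. Of calls at an unadjusted p under 0.05, 31.3% were higher with ethanol as deposited, 44.8% after centring and 47.2% after quantile normalization. The median of the chloride and bicarbonate transporter list was -0.016 with the dimmest 50% left out or with probesets averaged and -0.022 after quantile normalization. Slc12a4 and Slc12a7 were too dim for the 50% filter. Each fit that leaves out an ethanol array assumes that the remaining one varies like the saline arrays. No paired analysis was possible because the groups share no replicate number in the labels. Slc12a2 and Slc12a5 each had 1 probeset, so no other pair of probesets could be tried for the ratio.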
